A study of Rattus norvegicus with 6 samples.

Results

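The 10 genes described here encode the structural proteins of the basement membrane. They are Col4a1 and Col4a2 (collagen IV chains), Lama4, Lama5, Lamb1, Lamb2 and Lamc1 (laminin chains), Nid1 and Nid2 (nidogens) and Hspg2 (perlecan). They were found by their symbols among the 33294 gene symbols of the deposited count files, and all 10 were among the 17292 genes that passed the filter on low counts. Col4a2 was selected on its measured level in these same rats, which differed between the groups, so its values are given as a description with no test. The other 9 genes belong to the same protein families and were chosen with earlier results of these libraries known.

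A basement membrane is a thin sheet of extracellular matrix that lies under epithelia and around blood vessels, muscle and nerve. Collagen IV chains wind into triple helices and crosslink into a network, while laminins, each built of an alpha, a beta and a gamma chain, form a second network that cells hold through integrins and dystroglycan. Nidogens and perlecan bind both networks. In the pituitary such sheets surround the fenestrated capillaries that carry hormones away and the clusters of hormone-producing cells, and endothelial cells and pericytes make much of this matrix.

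Pituitary RNA was sequenced from male Sprague-Dawley rats aged 11 weeks, with 1 library per rat. The 3 nicotine-exposed rats were born to dams that received nicotine tartrate (6 mg/kg/day) during pregnancy from an osmotic mini-pump under the skin. The 3 control rats were born to dams whose pumps held sterile saline. The labels do not say whether rats of a group shared a dam, so the p-values measure the spread between these libraries. By the study's methods the pump was made to run for longer than the time from implant to birth, and its removal is not described. Whether the dams still received nicotine after birth is therefore not known. The comparison asks which pituitary genes differ in adult males born to nicotine-treated dams.

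The labels for these libraries could not be fully reconciled with the study's own records. A list of reads per library that accompanies the study gives more reads to the control libraries than to the nicotine libraries with the same number, whereas the deposited counts are larger in the nicotine libraries. The deposited totals keep a steady proportion to that list only if the groups are swapped. Every direction below rests on the deposited labels and would turn if they were swapped, and the difference was not resolved. The extraction protocol in the labels describes testis, but the pituitary hormone genes Gh1, Prl, Pomc, Tshb, Lhb, Fshb and Cga together stood between 113538 and 176311 CPM, the unit explained below, in each library. Library totals lay between 28318383 and 85977002 counts, and the median total was 1.70 times higher in the nicotine-exposed group. Nicotine replicate 2 stood furthest from the other libraries over all genes, at a mean distance of 90.8 on the log2 scale against 72.0 to 80.7 for the other 5. The 10 basement membrane genes took between 0.0255% and 0.0515% of the counts of a library, which was between 7217 and 32435 counts.

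The promoters of Col4a1 and Col4a2 are shown because the paired genes start close together on opposite strands and had nearly the same fold change between the groups. In the rat assembly GRCr8 (RefSeq), the window from 250 bases before to 50 bases after the start of Col4a1 is chr16:84885347-84885646 on the plus strand. The window of Col4a2 is chr16:84885471-84885770 on the minus strand. Each is written 5′ to 3′ on the strand of its own gene, and capitals mark the 176 bases that the windows share.
Col4a1: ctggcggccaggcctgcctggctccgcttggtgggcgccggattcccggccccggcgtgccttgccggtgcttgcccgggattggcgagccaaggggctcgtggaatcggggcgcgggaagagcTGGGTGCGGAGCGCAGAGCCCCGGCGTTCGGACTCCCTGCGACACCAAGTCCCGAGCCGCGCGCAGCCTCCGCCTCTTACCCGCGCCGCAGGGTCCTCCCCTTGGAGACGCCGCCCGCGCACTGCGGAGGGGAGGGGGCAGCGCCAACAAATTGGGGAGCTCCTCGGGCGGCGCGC
Col4a2: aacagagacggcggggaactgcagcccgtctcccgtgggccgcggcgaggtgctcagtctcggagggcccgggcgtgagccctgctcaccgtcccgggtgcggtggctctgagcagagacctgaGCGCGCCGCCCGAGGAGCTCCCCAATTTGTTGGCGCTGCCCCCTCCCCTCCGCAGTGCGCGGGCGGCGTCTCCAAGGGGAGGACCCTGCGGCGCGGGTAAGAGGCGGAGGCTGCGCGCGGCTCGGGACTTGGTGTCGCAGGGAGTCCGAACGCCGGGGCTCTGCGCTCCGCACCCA
The start sites are 77 bases apart. The shared stretch has a GC content of 75%, against a median of 51.7% over the 33469 rat promoter windows of this length. Promoter windows were matched for 8 of the 10 genes, and Lamb2 and Nid2 were not matched. The GC box GGGCGG, searched on both strands, was found in 7 of the 8 windows, all but that of Lama4, and in 33.1% of all promoter windows. The CCAAT box, searched as CCAAT on both strands, was found in the windows of Col4a1, Col4a2 and Nid1 and in 37.5% of all windows. TATAAA was found in the Lama4 window and in 14.2% of all windows. These matches describe the letters in the windows and were not linked to the counts.

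Levels are given as CPM, the counts of a gene per 1000000 counts of its library after TMM normalisation, a scaling of the libraries by edgeR. Because the files hold no gene lengths, differences in CPM are read between libraries for 1 gene and not between genes. Genes were ranked by mean CPM only to choose the most abundant of a list. In that ranking and in levels summed over genes, longer genes can weigh more. Following the study's cut-offs, a gene was called differentially expressed when its Benjamini-Hochberg adjusted p was below 0.1 and the groups differed by more than 1.5-fold. With edgeR's quasi-likelihood test, 0 of the 9 tested basement membrane genes were called, and 0% of the 17292 genes tested were called. At an unadjusted p under 0.05 edgeR listed 5 of the 9 genes, all higher in the nicotine-exposed rats (Col4a1, Lama5, Lamc1, Nid2 and Hspg2), against 3.13% of all genes tested in that direction and 6.14% in either direction. DESeq2 called 0 of the 9 and 0.335% of all genes tested, or 58 genes, 18 of them (0.104%) higher after nicotine. The adjusted p-values of the 9 genes lay between 0.760 and 0.986 with edgeR and between 0.160 and 0.995 with DESeq2.

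All 10 genes had a fitted log2 fold change above 0, although those of Lama4 and Lamb1 turned below 0 when single libraries were left out, as given below. Of all genes tested, 51% had a log2 fold change above 0. The median log2 fold change was 0.42 for the 10 genes and 0.40 without Col4a2, beside 0.01 for all genes tested. After all libraries were thinned to the smallest total, the median of the 10 genes was 0.45. In 5 genes (Col4a1, Col4a2, Lama5, Lamc1 and Hspg2) every nicotine-exposed library lay above every control library, and 4 of these 5 are among the 9 tested genes. That pattern was present in 6.12% of all genes tested, and in 11.3% when either direction was counted. A fold change over 1.5 with the nicotine-exposed rats higher was measured for Col4a1, Col4a2, Nid2 and Hspg2 and for 3.62% of all genes tested. In bulk RNA such as this, more cells of a type and more RNA per cell cannot be told apart.

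**Figure D1:**
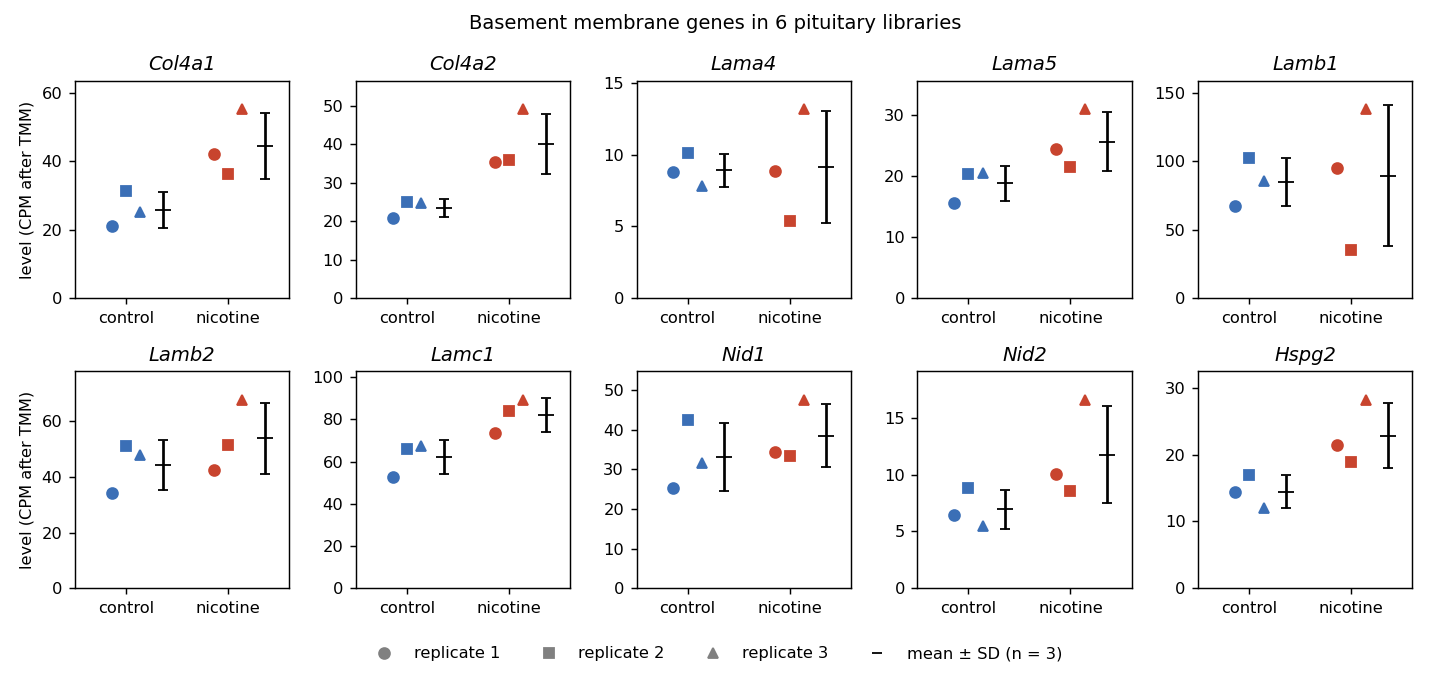
Level of each of the 10 basement membrane genes in CPM after TMM normalisation, on axes that start at 0, in 3 control and 3 nicotine-exposed libraries. Points are single rats with shapes for replicate numbers, and bars are the mean ± SD (n = 3). Nicotine replicate 3 is the highest point in all 10 panels, and the groups do not overlap for Col4a1, Col4a2, Lama5, Lamc1 and Hspg2.

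The collagen IV genes encode the alpha1 and alpha2 chains, which assemble into the most widespread collagen IV molecule. Col4a1 was measured at 42.1, 36.5 and 55.3 CPM in nicotine-exposed rats 1, 2 and 3 and at 20.9, 31.3 and 25.1 CPM in control rats 1, 2 and 3. All nicotine-exposed libraries were above all controls, with the smallest gap between nicotine replicate 2 and control replicate 2. The means were 44.6 ± 9.65 and 25.8 ± 5.24 CPM (SD, n = 3), a 1.73-fold difference with a log2 fold change of 0.79 (SE 0.21) that missed the threshold (edgeR adjusted p = 0.760, DESeq2 adjusted p = 0.160). Among all genes tested, 1.79% had a higher log2 fold change than Col4a1.

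Col4a2, whose product joins the Col4a1 chain in that molecule, was measured at 35.4, 35.9 and 49.1 CPM in the nicotine-exposed rats and at 20.8, 25.0 and 24.7 CPM in the controls. The groups did not overlap, which is part of the reason this gene was chosen. Its means were 40.2 ± 7.79 and 23.5 ± 2.34 CPM (SD, n = 3), and its log2 fold change was 0.77 (SE 0.18), or 1.71-fold. Col4a1 and Col4a2 thus had nearly the same fold change. The ratio of Col4a2 to Col4a1 counts within a library, which does not depend on scaling, was 0.840, 0.985 and 0.889 in the nicotine-exposed rats and 0.993, 0.797 and 0.982 in the controls. On the log2 scale this ratio averaged -0.15 ± 0.12 and -0.12 ± 0.18 (SD, n = 3), a difference of -0.03 that is smaller than either SD and that turned to 0.03 when control replicate 1 was left out.

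The genes whose pattern within the groups was most like that of Col4a1 were looked for among the 10337 genes with a mean log2 CPM of at least 3. Likeness was Pearson's r over the 6 libraries after centring each group, so it rests on few values and is a description. The genes named are the highest of this search. A search over this many genes and so few libraries can give a high r without any link between genes. The 5 most similar genes were Ppp1r12b, Prrt1, Tcf4, Rassf2 and Col12a1, with r between 0.994 and 0.998. For Col4a2 they were Arhgef26, Sppl3, Fgfr3, Fibin and Huwe1, with r between 0.988 and 0.998. Col4a1 and Col4a2 had r = 0.876 with each other, and the member closest to Col4a1 was Nid1 (r = 0.971), while the member closest to Col4a2 was Lama5 (r = 0.929).

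Of the laminin alpha chains, Lama5 encodes the chain of many epithelial and vascular basement membranes. It was measured at 24.4, 21.5 and 30.9 CPM in the nicotine-exposed rats and at 15.5, 20.3 and 20.4 CPM in the controls. The groups did not overlap, but nicotine replicate 2 was close to control replicates 2 and 3. The means of Lama5 were 25.6 ± 4.81 and 18.8 ± 2.79 CPM (SD, n = 3), with a log2 fold change of 0.45 (SE 0.19, edgeR adjusted p = 0.806).

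Lama4 encodes the laminin alpha chain typical of endothelial and mesenchymal basement membranes. Its levels were 8.89, 5.41 and 13.2 CPM in the nicotine-exposed rats and 8.79, 10.1 and 7.79 CPM in the controls. Both the lowest and the highest libraries were nicotine-exposed, and the controls lay between them. The means were 9.15 ± 3.89 and 8.90 ± 1.17 CPM (SD, n = 3), and the log2 fold change was 0.03 (SE 0.30, edgeR adjusted p = 0.986). Leaving out nicotine replicate 3 gave -0.33, and leaving out nicotine replicate 2 gave 0.30. Thus Lama4 had no stable direction in these libraries, unlike Lama5, whose log2 fold change stayed between 0.29 and 0.55 with any library left out.

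The difference between the alpha chains was itself compared. The ratio of Lama4 to Lama5 counts was 0.364, 0.251 and 0.426 in the nicotine-exposed rats and 0.565, 0.498 and 0.381 in the controls. Nicotine replicate 3 was above control replicate 3, so the groups overlapped. The log2 ratio averaged -1.56 ± 0.39 and -1.07 ± 0.29 (SD, n = 3), a difference of -0.49 (exact two-sided permutation p = 0.2, 0.3 after adjustment over 3 ratios). The smallest p that 3 against 3 libraries can give is 0.1.

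The laminin beta chains behaved differently from each other in 1 library. Lamb1 encodes the widespread beta1 chain. It was measured at 95.2, 35.3 and 138 CPM in the nicotine-exposed rats and at 67.3, 103 and 85.4 CPM in the controls. Nicotine replicate 2 was the lowest library and nicotine replicate 3 the highest, so Lamb1 had the widest relative spread of the 10 genes within the nicotine-exposed group. The means were 89.6 ± 51.7 and 85.1 ± 17.6 CPM (SD, n = 3), with a log2 fold change of 0.07 (SE 0.38, edgeR adjusted p = 0.978). It was 0.44 without nicotine replicate 2, -0.39 without nicotine replicate 3 and -0.07 without control replicate 1.

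Lamb2 encodes the beta2 chain, known from the basement membranes of the kidney glomerulus, the neuromuscular junction and vessels. It was measured at 42.6, 51.2 and 67.6 CPM in the nicotine-exposed rats and at 34.2, 51.03 and 47.7 CPM in the controls. The groups overlapped through nicotine replicate 1. The means were 53.8 ± 12.7 and 44.3 ± 8.93 CPM (SD, n = 3), with a log2 fold change of 0.28 (SE 0.21, edgeR adjusted p = 0.840), which was 0.08 without nicotine replicate 3.

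The ratio of Lamb1 to Lamb2 counts separated nicotine replicate 2 from the other libraries. It was 0.689 in nicotine replicate 2 and 2.24 and 2.04 in nicotine replicates 1 and 3, against 1.97, 2.01 and 1.79 in the controls. The log2 ratio averaged 0.55 ± 0.95 and 0.94 ± 0.088 (SD, n = 3), a difference of -0.39 (exact two-sided permutation p = 1, also 1 after adjustment). Without nicotine replicate 2 the difference was 0.15. The low Lamb1 value was therefore not shared by Lamb2 in the same RNA, and nicotine replicate 2 is also the library that stood apart over all genes.

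Lamc1 encodes the gamma1 chain, the gamma chain of most laminins. It was measured at 73.3, 83.8 and 89.2 CPM in the nicotine-exposed rats and at 52.8, 66.0 and 67.5 CPM in the controls. No libraries overlapped, and the relative spread within the nicotine-exposed group was the lowest of the 10 genes, at 9.87% of the mean. The means were 82.1 ± 8.11 and 62.1 ± 8.13 CPM (SD, n = 3), a 1.32-fold difference with a log2 fold change of 0.40 (SE 0.16, edgeR adjusted p = 0.806). With any library left out the log2 fold change of Lamc1 stayed between 0.30 and 0.48.

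Nidogens link the laminin and collagen IV networks. Nid1 was measured at 34.5, 33.5 and 47.6 CPM in the nicotine-exposed rats and at 25.4, 42.4 and 31.5 CPM in the controls. The groups overlapped, because control replicate 2 was above nicotine replicates 1 and 2. Its means were 38.5 ± 7.86 and 33.1 ± 8.60 CPM (SD, n = 3), with a log2 fold change of 0.22 (SE 0.22, edgeR adjusted p = 0.856), which was 0.03 without nicotine replicate 3 and 0.06 without control replicate 1.

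Nid2, the second nidogen, was measured at 10.03, 8.58 and 16.6 CPM in the nicotine-exposed rats and at 6.43, 8.85 and 5.52 CPM in the controls. The overlap was small, with control replicate 2 just above nicotine replicate 2. The means were 11.7 ± 4.26 and 6.93 ± 1.72 CPM (SD, n = 3), a 1.68-fold difference with a log2 fold change of 0.75 (SE 0.28, edgeR adjusted p = 0.785). It was 0.41 without nicotine replicate 3.

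The proportion of the nidogens did not overlap between the groups. The ratio of Nid1 to Nid2 counts was 3.44, 3.90 and 2.87 in the nicotine-exposed rats and 3.96, 4.79 and 5.71 in the controls. Every nicotine-exposed library was below every control, although nicotine replicate 2 and control replicate 1 nearly touched. The log2 ratio averaged 1.76 ± 0.22 and 2.25 ± 0.26 (SD, n = 3), a difference of -0.50 (exact two-sided permutation p = 0.1, 0.3 after adjustment over 3 ratios), and 0.1 is the smallest p this design allows. It stayed between -0.63 and -0.37 with any library left out.

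**Figure D2:**
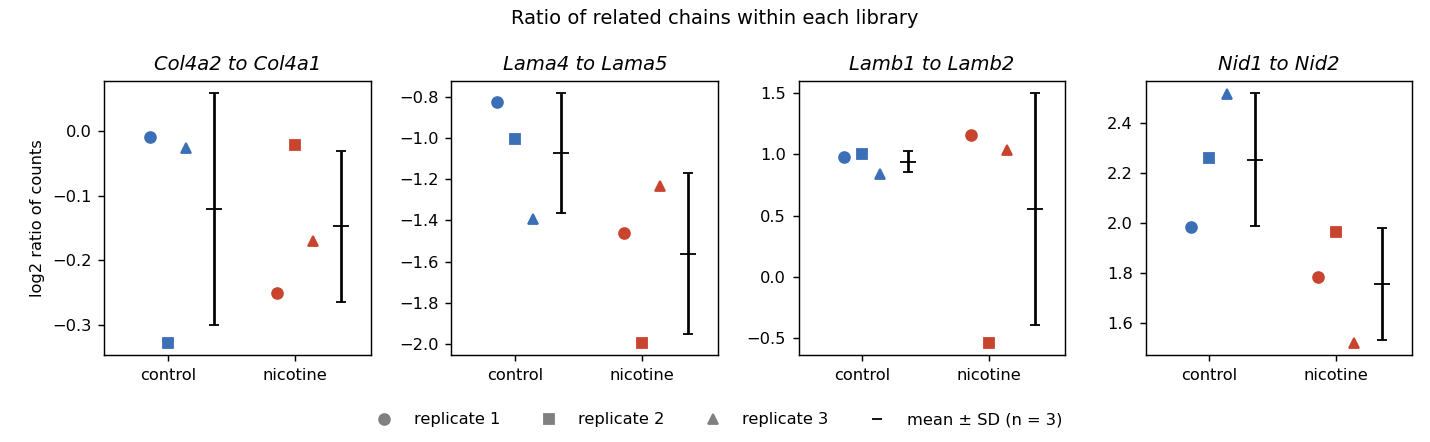
Log2 ratio of the counts of related chains within each library, in 3 control and 3 nicotine-exposed rats, with the mean ± SD (n = 3) beside the points; each panel has its own axis, which does not start at 0. The ratio of Nid1 to Nid2 is the only one of the 4 whose groups do not overlap, and nicotine replicate 2 stands alone at -0.54 in the panel of Lamb1 to Lamb2.

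Hspg2 encodes perlecan, a large heparan sulfate proteoglycan that binds growth factors and ties the networks together. It was measured at 21.4, 18.9 and 28.2 CPM in the nicotine-exposed rats and at 14.4, 16.9 and 12.0 CPM in the controls. All nicotine-exposed libraries were above all controls. The means were 22.8 ± 4.82 and 14.4 ± 2.45 CPM (SD, n = 3), a 1.58-fold difference with a log2 fold change of 0.66 (SE 0.21, edgeR adjusted p = 0.760, DESeq2 adjusted p = 0.335). It stayed between 0.48 and 0.79 with any library left out.

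**Figure D3:**
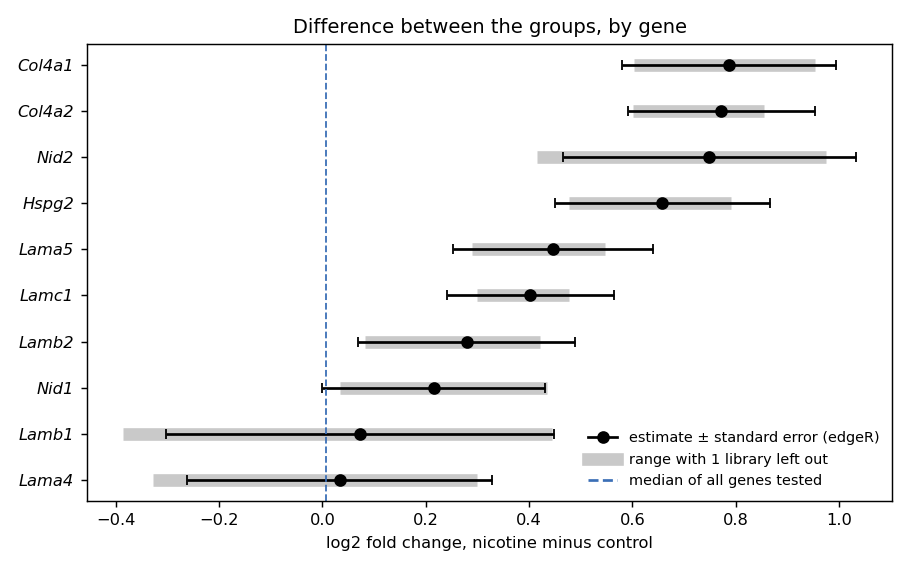
Log2 fold change, nicotine minus control, of the 10 basement membrane genes from edgeR. Points and whiskers are the estimate ± SE, grey bars are the range when 1 of the 6 libraries is left out, and the dashed line is the median of all genes tested (0.01). The grey bars of Lamb1 and Lama4 reach below 0, and those of the other 8 genes do not.

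The 10 genes were also compared from rat to rat. Nicotine replicate 3 was the highest of the 6 libraries for all 10 genes, and control replicate 1 was the lowest for 6 of them. Nicotine replicate 2 was the lowest library for Lama4 and Lamb1, and control replicate 3 for Nid2 and Hspg2. The median log2 difference of the 10 genes from their control means was 0.32, 0.28 and 0.73 in the nicotine-exposed rats and -0.24, 0.23 and 0.00 in the controls. The medians of nicotine replicate 2 and control replicate 2 were close, although single genes such as Lamb1, Lama4 and Lamc1 differed between these libraries in both directions. Without nicotine replicate 3 the median log2 fold change of the 10 genes was 0.31, with 8 of them above 0 and 1 of the 9 tested genes at an unadjusted p under 0.05. Without control replicate 1 the median was also 0.31, with 9 above 0 and 2 of the 9 at an unadjusted p under 0.05.

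The summed level of the 10 genes was 388, 331 and 536 CPM in the nicotine-exposed rats and 266, 374 and 328 CPM in the controls, so the groups overlapped. Their means were 418 ± 106 and 323 ± 54.2 CPM (SD, n = 3). Lamb1, whose level varied most, decided the overlap. Without it the sums were 293, 295 and 398 CPM against 199, 272 and 242 CPM, with means of 329 ± 59.9 and 238 ± 36.6 CPM (SD, n = 3) and no overlap. Leaving Lamb1 out was chosen after its values were seen.

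Within the groups, pairs of these genes differed in how closely they followed each other, again as r over 6 libraries with each group centred. The closest pair was Nid2 and Hspg2 (r = 0.985). Lamb2 and Lamc1 (r = 0.943) and Lama4 and Lamb1 (r = 0.941) formed other close pairs of chains. In contrast, Lamc1 had r = 0.131 with Lama4 and r = 0.174 with Hspg2, the lowest values of all pairs. With 6 libraries these values are a description, and whether the 10 genes vary as 1 block was not tested.

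Markers of the cells that line and wrap blood vessels were measured in the same libraries. Of all genes tested, 6.12% were higher without overlap between groups, 11.3% did not overlap in either direction, and DESeq2 called 0.335%. Of 12 endothelial markers, 11 had a log2 fold change above 0 and 6 did not overlap between groups, with a median of 0.48. Their summed level was 243 to 392 CPM in the nicotine-exposed rats and 194 to 265 CPM in the controls. The 3 most abundant were Kdr, Tie1 and Plvap, with log2 fold changes of 0.44, 0.69 and 0.71. edgeR called none of the 12 and DESeq2 called 1, Mcam, at 13.1, 11.7 and 12.9 CPM in the nicotine-exposed rats and 6.54, 7.60 and 4.46 CPM in the controls (log2 fold change 1.01, DESeq2 adjusted p = 0.0207, edgeR adjusted p = 0.702). Of 12 markers of pericytes and smooth muscle, all 12 were above 0 and 4 did not overlap, with a median of 0.71 and summed levels of 74.9 to 252 CPM against 65.8 to 82.0 CPM. The most abundant of these were Tagln, Myh11 and Mylk, with log2 fold changes of 1.28, 0.57 and 0.41. The value of Tagln came from nicotine replicate 3, with 15.1, 10.6 and 138 CPM in the nicotine-exposed rats against 32.4, 20.4 and 14.6 CPM in the controls, and that library also set the upper end of the summed level. edgeR called none of the 12 and DESeq2 called 1, the smooth muscle actin gene Acta2, at 2.74, 2.21 and 2.54 CPM against 0.258, 0.984 and 0.449 CPM (log2 fold change 2.01, DESeq2 adjusted p = 0.00252, edgeR adjusted p = 0.492). The control levels of Acta2 rest on only 7, 52 and 17 counts, so its fold change is imprecise. Nicotine replicate 3 had the highest sum of both lists. No marker of these lists was at 0 in any library.

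The basement membrane genes were also expressed per 100 counts of the 12 endothelial markers, a scale chosen after the values were seen and given without a test. On this scale the 10 genes together stood at 120, 136 and 137 in the nicotine-exposed rats and at 127, 141 and 169 in the controls, and the mean log2 difference was -0.15. Col4a1 stood at 13.0, 15.0 and 14.1 against 9.96, 11.8 and 13.0, a log2 difference of 0.28 in place of 0.79, with all nicotine-exposed libraries still above the controls by a narrow gap. Col4a2 had a log2 difference of 0.26, Nid2 of 0.22 and Hspg2 of 0.15, and their groups overlapped. The laminin chains and Nid1 were all below 0 on this scale, from -0.06 for Lama5 to -0.62 for Lamb1. The summed endothelial markers were on average higher in the nicotine-exposed rats (243 to 392 against 194 to 265 CPM). A gene with equal CPM in both groups therefore falls below 0 on this scale. Lama4, with a log2 fold change of 0.03 in CPM, had a log2 difference of -0.55 here. Lamb1, which is part of the sum of the 10 genes, stood at 29.5, 14.5 and 35.2 in the nicotine-exposed rats. In the controls it stood at 32.0, 38.7 and 44.1. The sum was not taken without Lamb1 on this scale. Lama4 stood at 2.75, 2.22 and 3.36 in the nicotine-exposed rats and 4.18, 3.82 and 4.02 in the controls, where every nicotine-exposed library was the lower. The share of all genes tested that separate the groups on this scale was not taken. The separations of Lama4 and Col4a1 here thus have no background to stand beside. The part of vessel cells in the CPM differences was not tested.

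Markers of other cells had other directions. All 8 fibroblast and meningeal markers had a log2 fold change under 0, with a median of -0.76 and summed levels of 294 to 522 CPM against 595 to 818 CPM. Their most abundant members Dcn, Col1a2 and Col3a1 had log2 fold changes of -0.86, -0.51 and -0.54 (none called by edgeR), so these genes for fibrillar collagens and for decorin, which binds them, lay on the other side of 0 from Col4a1 and Col4a2. Red blood cell markers had a median of -1.20 (all 5 under 0, 2 of them called by DESeq2 and none by edgeR, beside 0.335% and 0% of all genes tested). Alas2 and the globin genes Hba-a1 and Hbb, whose reads near-identical copies may share, were the most abundant. Leukocyte markers had a median of -0.96 (all 5 tested under 0), with S100a9, S100a8 and Ptprc the most abundant. The leukocyte sum was 24.99, 24.02 and 29.9 CPM in the nicotine-exposed rats and 114, 20.8 and 92.6 CPM in the controls. Control replicate 2 was thus below every nicotine-exposed library, and S100a8 and S100a9 were also lowest there. Of the 5 tested leukocyte markers, 2 were lower in every nicotine-exposed library. Among all genes tested, 11.3% did not overlap in either direction and 6.12% were higher without overlap. Folliculostellate markers (Aldh1a1, S100b and Gstm2 the most abundant) had a median of 0.13. Posterior lobe markers had one of 1.08, with 6 above 0 and 1, Gfap, below at -0.66. The most abundant were Vim, Nefl and Nefm, with log2 fold changes of 0.10, 1.08 and 0.71. Rax, Lhx2 and Nkx2-1 had 1.40, 1.29 and 1.57, with only 11, 25 and 7 counts in control replicate 3. Gfap, Rax, Lhx2 and Nkx2-1 were named after their values were seen. The 7 hormone genes (Gh1, Pomc and Prl the most abundant) had a median of 0.38, with 4 above 0 and 3 below. The part of these cells in the values of the basement membrane genes was not tested.

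**Figure D4:**
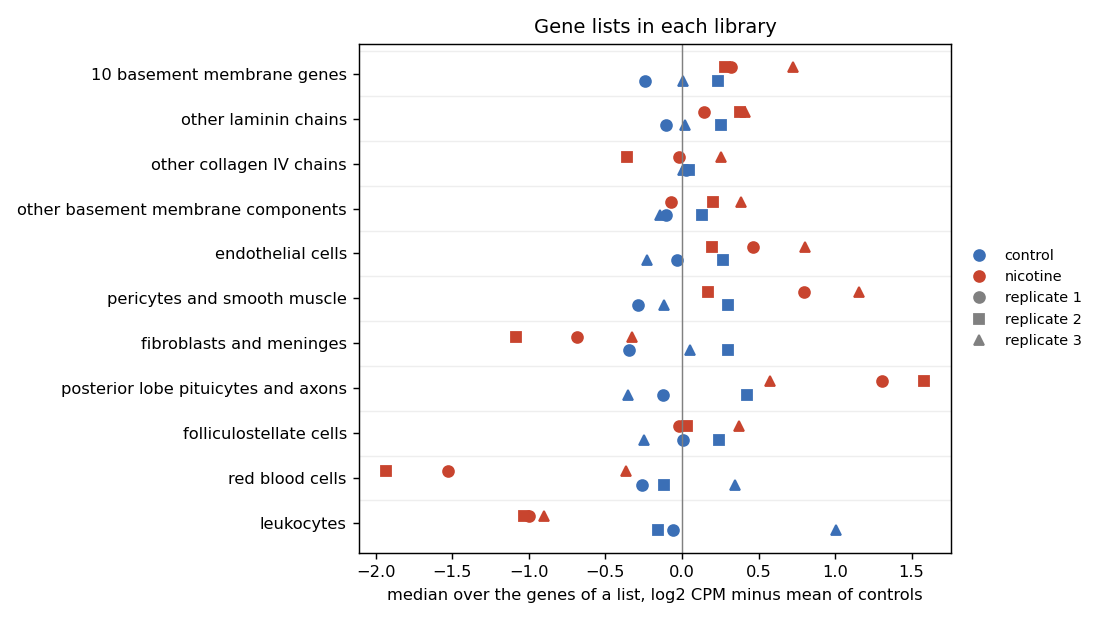
Median over the genes of each list of the log2 CPM minus the mean of the controls, for 3 control and 3 nicotine-exposed libraries. The 10 basement membrane genes lie at 0.28 to 0.73 in the nicotine-exposed rats and at -0.24 to 0.23 in the controls, the endothelial and pericyte lists have their highest value in nicotine replicate 3, and the fibroblast list lies below all its controls in nicotine replicates 1 and 2.

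The rest of the basement membrane pathway was described by 6 lists with 62 genes in all, all of which passed the filter on low counts. edgeR called 0 of the 62, and DESeq2 called 1, beside 0% and 0.335% of all genes tested. The counts without overlap in these lists stand beside 6.12% of all genes tested with nicotine higher and 11.3% in either direction. The other collagen IV chains, which form networks in specialised membranes such as that of the glomerulus, had 2 genes above 0 and 2 below, with a median log2 fold change of 0.04. Col4a5 was measured at 32.6 ± 3.07 CPM in the nicotine-exposed rats and 33.8 ± 2.81 CPM in the controls (SD, n = 3, log2 fold change -0.05), Col4a4 had a log2 fold change of -0.44 and Col4a6 one of 0.26. None of these 4 chains separated the groups. Col4a1 and Col4a2 did, but Col4a2 was chosen partly for that separation, so its side of the contrast was fixed in advance. The contrast was not tested.

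The 6 other laminin chains were all above 0, with a median log2 fold change of 0.31. Lama3 and Lama1, chains of epithelial laminins, had log2 fold changes of 0.35 and 0.24, and their groups overlapped. The gene that did not overlap was Lamc3, a gamma chain, named after its values were seen, at 3.97, 3.48 and 6.18 CPM in the nicotine-exposed rats and 2.03, 3.03 and 2.77 CPM in the controls.

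Of 17 other basement membrane components, 13 were above 0 and 4 below, with a median of 0.24. Sparc, which binds collagen IV, had a log2 fold change of 0.33 and Agrn (agrin) one of 0.22, with overlapping groups. Fbln1, a fibulin, was lower in every nicotine-exposed library, at 28.5, 32.4 and 35.7 CPM against 48.8, 78.9 and 44.3 CPM (log2 fold change -0.83, edgeR adjusted p = 0.760). Of this list 3 genes were higher and 2 lower without overlap.

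Collagen folding and export genes had 10 of 12 above 0 and a median of 0.10. P4hb, a subunit of the prolyl hydroxylase that stabilises the triple helix, had a log2 fold change of 0.03, and the collagen chaperone gene Serpinh1 one of 0.16. Mia3, which helps to load collagen for export, had one of 0.25 with no overlap between groups. Of this list 2 genes were higher without overlap, Mia3 and Creb3l1, and 2 lower, the prolyl hydroxylase genes P4ha1 (log2 fold change -0.23) and P4ha3 (-0.81), both named after their values were seen. The pathway gene that DESeq2 called was Creb3l1, a transcription factor of collagen-secreting cells, at 91.3, 75.0 and 51.4 CPM in the nicotine-exposed rats and 32.6, 49.3 and 32.4 CPM in the controls (log2 fold change 0.93, DESeq2 adjusted p = 0.0999, edgeR adjusted p = 0.760). Creb3l1 was lowest in nicotine replicate 3 among the nicotine-exposed rats, the library in which all 10 basement membrane genes were highest.

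Of 13 basement membrane receptors, 9 were above 0, with a median of 0.23. In this list 1 gene was higher without overlap, a pattern present in 6.12% of all genes tested. Itgb1, the common beta1 integrin chain, was measured at 232 ± 35.6 CPM in the nicotine-exposed rats and 225 ± 2.03 CPM in the controls (SD, n = 3), with a log2 fold change of 0.05. Sdc2 (syndecan 2) had one of -0.03 and Ddr1, a collagen receptor kinase, one of 0.34. Matrix proteases and their inhibitors had 5 genes above 0 and 5 below, and 3 of the 10 were lower without overlap. The inhibitors Timp2, Timp3 and Timp1 had log2 fold changes of 0.00, 0.45 and 0.48, and their groups overlapped.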

How the data were processed

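Pituitary RNA from 3 nicotine-exposed and 3 control rats was measured with 1 library per rat, made with a directional kit. The authors mapped paired-end reads to rn7 with HISAT2 2.1.0 and counted them per gene with featureCounts on UCSC's ncbiRefSeq annotation, and the deposited values are raw counts per gene symbol without normalisation. bcl2fastq 2.20.0.422 and DESeq2 2.11.40.7 are also in the submitters' processing notes. How strand, pairs and reads that map to several places were counted is not given in the sources used here, and the files hold no coordinates. Sequences come from RefSeq promoter windows of GRCr8, another build than that of the counts.

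Calculations used R 4.3.3, edgeR 4.0.16, limma 3.58.1 and DESeq2 1.42.0. edgeR's quasi-likelihood test was fitted over the 17292 genes kept by filterByExpr, with TMM factors between 0.957 and 1.07, no covariate and Benjamini-Hochberg adjustment over all of them. Log2 CPM used a prior count of 2. The biological coefficient of variation from edgeR was 23.6% in common and had a median of 19.7% over the 10 genes. Totals of 28318383 to 85977002 counts gave each of the 10 genes at least 174 counts in every library. Ratios of chains were compared by exact permutation of the 6 libraries. The test was checked on simulated counts.

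Named genes were the 10 genes, the 3 most abundant genes of each list, called genes, and for each collagen IV gene the 5 most similar genes by r; others are said to be named after their values were seen. Some genes that this rule names are not reported here. The members and lists were chosen with earlier results of these data known. The alternatives were DESeq2, RLE size factors, unscaled library sizes, no filter or a filter of 10 counts in each library, limma voom with weights for sample quality, counts thinned to the smallest total, a replicate block and leaving out each library, and, chosen after seeing the data, edgeR's older quasi-likelihood fit. Testis and DNA methylation were not analysed here.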

Additional observations from a re-analysis of the deposited data

How the results depend on the processing

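None of the 9 tested basement membrane genes was called under any of the 15 alternatives, and Col4a2, which was not tested, kept its direction in all 15. Over all genes tested, 0 were called with edgeR (1062 at an unadjusted p under 0.05), 58 with DESeq2, 1 with library sizes alone, 2 with no filter, 1 with limma voom, 1 after thinning to the smallest library, and 0 with RLE size factors, with at least 10 counts in every library or with edgeR's older fit. Leaving out 1 library gave 0 to 4 calls (1 without nicotine replicate 2, 3 without nicotine replicate 3, 4 without control replicate 2). DESeq2 called 1 pathway gene, Creb3l1, and the other alternatives called 0. The median log2 fold change of the 10 genes was 0.42 to 0.46 under the alternatives that keep all libraries and 0.31 to 0.50 with 1 left out. Of 135 comparisons of 1 of the 9 genes with an alternative, 128 kept direction and side of the threshold, and 7 turned below 0. With 1 library left out, Lama4 ranged from -0.33 to 0.30 and Lamb1 from -0.39 to 0.44. The 7 were Lama4 after thinning (-0.00036), with the replicate block (-0.046), without nicotine replicate 3 (-0.33) and without control replicate 3 (-0.058), and Lamb1 with the block (-0.087), without nicotine replicate 3 (-0.39) and without control replicate 1 (-0.070). The log2 ratio of Col4a2 to Col4a1 differed by -0.13 to 0.029 with 1 library left out (0.025 without nicotine replicate 1, 0.029 without control replicate 1, 0.021 without control replicate 3), and that of Lamb1 to Lamb2 by -0.69 to 0.15 (0.15 without nicotine replicate 2). The cause was not tested.

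Rats with the same replicate number did not deviate together, with correlations of 0.03, -0.20 and -0.08 between same-numbered libraries, so the numbers were not used as pairs. With the replicate block edgeR called 2 genes, both lower after nicotine and neither among the 9 tested genes, and 8 of the 10 basement membrane genes were above 0. With 3 rats per group, the spread between rats and the unequal library totals limit what these counts can show, and an adjusted p above the threshold does not show that a gene was equal in both groups.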
